A study of Homo sapiens with 12 samples.

Results

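The miR-130, miR-301 and miR-454 family is a group of microRNAs (miRNAs) that share one seed. Its members were taken by name, as every arm of miR-130, miR-301 and miR-454 among the mature miRNA entries of both deposited tables. This gave 7 entries, of 285 mature miRNAs listed without LPS, 262 listed with LPS and 314 listed in either table. The 7 entries are miR-301a-3p, miR-301a-5p, miR-454-3p, miR-454-5p, miR-130b-3p, miR-130b-5p and miR-301b, and other members were not analysed here. miR-301b is listed with no arm in its name and was taken as the 3p strand, which RefSeq lists as miR-301b-3p.

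The cells were Mono Mac 6 (MM6), a human monocytic cell line, either wild type or with a knockout of ALOX5, the gene for 5-lipoxygenase (5-LO). Cells of all groups were matured with TGF-β (1 ng/mL) and calcitriol (50 nM), for 72 h by the labels. The study's figure legend for the sequencing without LPS gives the same time, while its general culture methods give a longer one. In 2 of the 4 groups, 1 wild type and 1 knockout, LPS, a component of the bacterial outer membrane that activates monocytes, was also given at 1 µg/mL for 6 h. Each group had 3 small RNA libraries, 12 in all. The knockout (5-LOΔ) cells were 2 single-cell clones made with lentiviral CRISPR/Cas9 against exon 2 of ALOX5. The labels do not name the clone behind a library, and the genotype was not checked from small RNA, so that clone and genotype cannot be told apart.

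A miRNA hairpin is cut by Drosha and Dicer into a duplex, from which one strand, the guide, is kept in an Argonaute protein while the other is mostly lost. The guide pairs with messenger RNAs through its seed, so that guides with one seed can act on overlapping sets of targets. In this family the 3p strand was taken as the guide. The mature guide sequences (RefSeq, GRCh38.p14) are shown because every comparison rests on telling them apart, with the seed, bases 2 to 8, in capitals.

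miR-301a-3p: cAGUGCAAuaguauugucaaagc
miR-301b: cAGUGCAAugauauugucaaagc
miR-130b-3p: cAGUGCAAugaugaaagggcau
miR-454-3p: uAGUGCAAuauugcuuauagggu

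The seed AGUGCAA is the same in all 4 guides. Of the 314 names in the tables, 264 were matched to a mature sequence, and these 4 were the only ones with this seed. Counted from the 5′ end, miR-301b differs from miR-301a-3p by 2 bases, A10G and G11A (miR-301a-3p as reference). miR-130b-3p shares its first 12 bases with miR-301b and differs from it at 9 of the 22 positions compared. miR-454-3p differs from miR-301a-3p at 10 of 23 positions, among them the first, C1U. How many mismatches were allowed when reads were assigned is not given in the sources used here, so the split of reads between miR-301a-3p and miR-301b is uncertain.

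Both abundant members come from hairpins in one gene. In GRCh37, the build the deposited values rest on, MIR454 lies at chr17:57215119-57215233 and MIR301A at chr17:57228497-57228582, both on the reverse strand and 13263 bp apart. SKA2, a gene for a protein of the spindle and kinetochore, runs on the same strand at chr17:57187218-57232621. All 10 annotated SKA2 transcripts span both hairpins, and each hairpin is intronic in all 10. MIR301B lies at chr22:22007270-22007347 on the forward strand, in an intron of all 3 transcripts of an unnamed long noncoding RNA gene. The hairpin sequences of the SKA2 pair (RefSeq, GRCh38.p14, as RNA) are shown because the ratio of miR-454-3p to miR-301a-3p differed between the genotypes with LPS, with the mature arms in capitals.

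MIR454: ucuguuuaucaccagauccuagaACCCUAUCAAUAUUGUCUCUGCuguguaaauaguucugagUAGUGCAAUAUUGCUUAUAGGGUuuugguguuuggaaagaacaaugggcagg
MIR301A: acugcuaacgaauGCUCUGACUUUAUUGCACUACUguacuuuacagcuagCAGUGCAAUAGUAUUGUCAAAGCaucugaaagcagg

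The MIR454 hairpin is 115 nt long with 18 nt between its arms, and the MIR301A hairpin is 86 nt long with 15 nt between its arms.

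The deposited values are the authors' means, 1 per genotype, of normalized counts over 3 libraries, in one table without LPS and one with LPS. The tables hold no SD for these means. Whole reads divided by 3 size factors can give only certain means, and this was used to recover the size factors. They were 1.25, 1.02 and 0.883 in wild-type and 1.34, 0.945 and 0.725 in 5-LOΔ cells without LPS. With LPS they were 1.72, 1.07 and 0.665 in wild-type and 1.30, 0.835 and 0.812 in 5-LOΔ cells. One read in a library was thus worth between 0.582 and 1.5 normalized counts. All means of at most 10 came out as whole reads in exactly 1 way, while many larger means did not. Reads per library are given below in the order of falling size factor, which is not a replicate number. Intervals are 95% counting intervals, which cover the sampling of reads only and not the spread between libraries.

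Without LPS, the sum of the mature miRNA entries was 102407 normalized counts for wild-type and 113363 for 5-LOΔ cells. With LPS it was 93209 and 110318. A large part of these sums was miR-3607-3p and miR-3607-5p, with nearly equal means (22225 and 22198 in wild-type cells without LPS). Without these arms the sums were 57984 and 72752 without LPS and 54105 and 67872 with LPS. As a check of the cell type, all 4 miRNAs taken as myeloid markers (miR-223-3p, miR-142-3p, miR-142-5p and miR-21-5p) had values above 0 in all 4 groups. Their summed means were 3014 and 4449 in wild-type and 5-LOΔ cells without LPS and 3205 and 3698 with LPS, most of it miR-21-5p (2499 and 3885 without, 2816 and 3188 with LPS). Against this direction, miR-223-3p was lower in 5-LOΔ than in wild-type cells, at 74.3 and 93.8 without and 58.0 and 60.4 with LPS, as was miR-142-3p without LPS (95.2 and 97.9). Of 11 marker miRNAs of erythroid, lymphoid, liver, neural, muscle and epithelial cells, 2 had a value in any group. The neural miR-9-5p had means of 16.2, 42.3, 19.7 and 21.2 in wild-type, 5-LOΔ, wild-type with LPS and 5-LOΔ with LPS, and the epithelial miR-200c-3p had 1.19, 0, 1.00 and 0. The part of either in the results below was not tested.

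miR-301a-3p was the most abundant member in every group. The authors' means were 49.2 normalized counts in wild-type (95% counting interval 41.3 to 57.0) and 48.0 in 5-LOΔ cells (40.0 to 56.1). With LPS they were 43.5 (36.0 to 51.0) and 41.9 (34.3 to 49.5). The intervals of all 4 groups overlap. Its reads could not be assigned to single libraries in 1 way, and the possible totals were 134 to 172 in wild-type, 118 to 152 in 5-LOΔ, 128 to 136 in wild-type with LPS and 111 to 135 in 5-LOΔ with LPS. The log2 ratio of 5-LOΔ to wild type was -0.03 without LPS (95% counting interval -0.37 to 0.30) and -0.05 with LPS (-0.41 to 0.31). With one library left out under every possible split, an alternative chosen after the data were seen, it ran from -1.72 to 2.67 without and from -0.93 to 0.52 with LPS, so how far it rests on single libraries is not known.

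miR-454-3p, the guide from the other SKA2 intron hairpin, was second in abundance. In wild-type cells its libraries held 36, 24 and 20 reads, or 28.8, 23.6 and 22.6 normalized counts, with a mean of 25.0 (SD 3.31). In 5-LOΔ cells they held 38, 25 and 14 reads, or 28.4, 26.5 and 19.3 normalized counts, with a mean of 24.7 (SD 4.80). Without LPS the libraries of the genotypes thus overlapped, with 1 5-LOΔ library (19.3) below all wild-type libraries. With LPS the 5-LOΔ libraries held 19, 10 and 5 reads, or 14.6, 12.0 and 6.16 normalized counts, with a mean of 10.9 (SD 4.32). The wild-type mean with LPS was 25.1, and 3 splits into libraries were possible, of 35, 25 and 21 reads, of 44, 21 and 20 reads, or of 53, 17 and 19 reads (SD 5.80, 5.25 or 8.06). In none of these splits was a wild-type library under 15.9 normalized counts, so all 5-LOΔ libraries lay below all wild-type libraries with LPS, the nearest at 14.6. These splits rest on means over 10. At that level 50 of 50 means from 10 to 20 came out in 1 way in 5-LOΔ with LPS, but none of 59 in wild-type with LPS, and of the means from 20 to 30 in wild-type and 5-LOΔ without LPS 30 of 34 and 29 of 39 did.

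**Figure D1:**
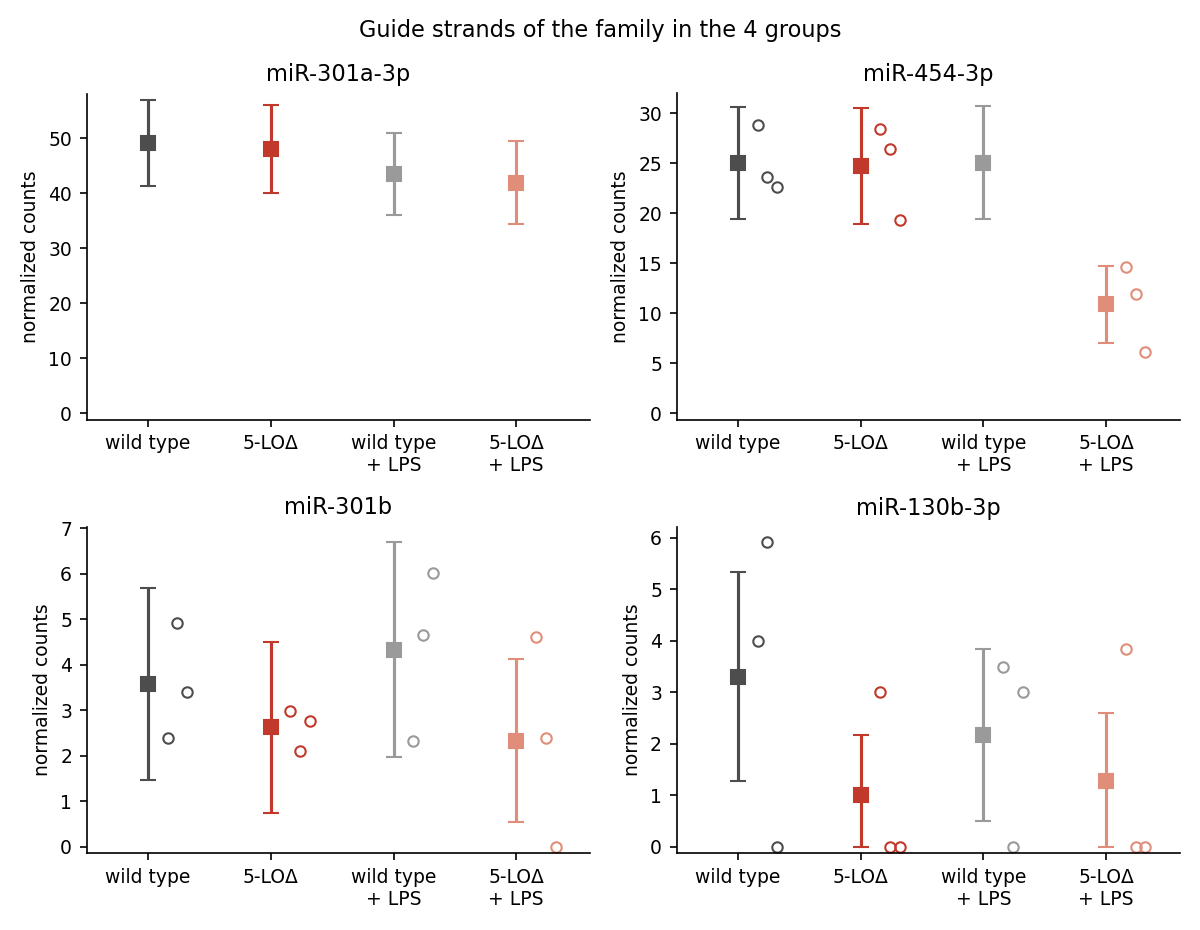
Normalized counts (vertical axes, different scales) of the 4 guide strands in the 4 groups. Squares are the authors' means with 95% counting intervals, and open circles are single libraries where their reads came out in 1 way. Only for miR-454-3p with LPS do the intervals of the genotypes not overlap (7.05 to 14.8 in 5-LOΔ and 19.4 to 30.8 in wild-type cells).

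**Figure D2:**
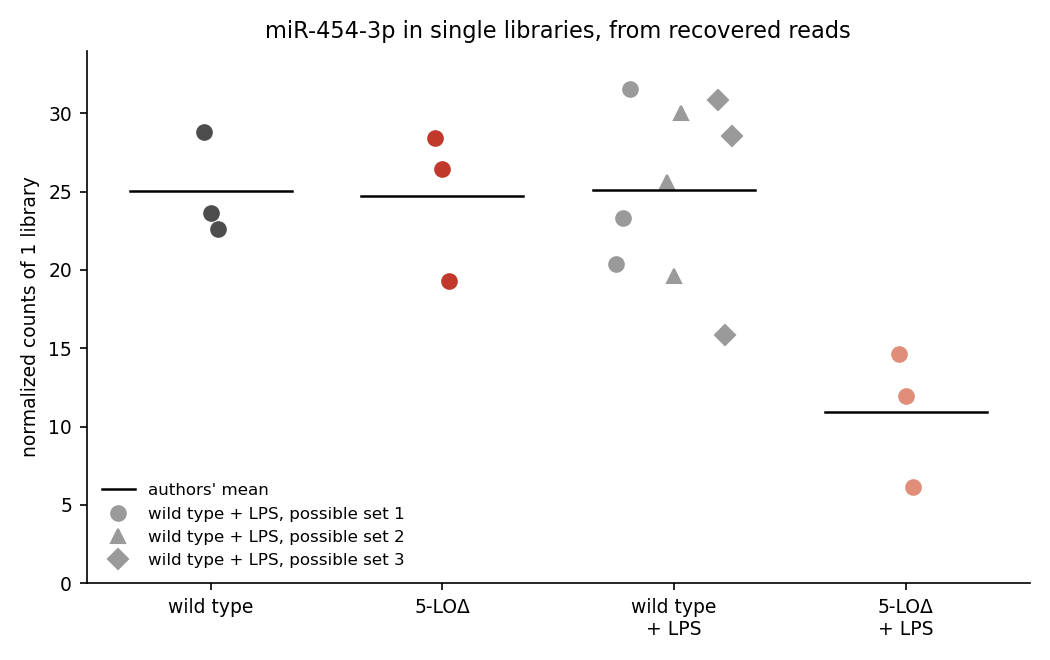
Normalized counts of miR-454-3p in each library (vertical axis) by group, from recovered reads, with lines at the authors' means. For wild type with LPS the 3 possible splits have different symbols. The highest 5-LOΔ library with LPS (14.6) is below the lowest wild-type library with LPS of any split (15.9).

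The log2 ratio of 5-LOΔ to wild type for miR-454-3p was -0.02 without LPS (95% counting interval -0.48 to 0.45). With LPS it was -1.20 (-1.81 to -0.59), or 2.30-fold lower. Leaving out one library at a time, under each possible split (the use of several splits was chosen after the data were seen), gave -1.47 to -0.92 with LPS and -0.13 to 0.13 without LPS. The ratio with LPS minus the ratio without LPS was -1.18 (-1.95 to -0.42), against -0.02 (-0.51 to 0.47) for miR-301a-3p. No test was run on these differences. With 3 libraries against 3, the smallest exact two-sided p a permutation can give is 0.10, and the spread between libraries is not part of the intervals.

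The 2 members with a mean over the 4 groups of at least 10 normalized counts, miR-301a-3p and miR-454-3p, were set against all 111 mature miRNAs above that limit. Without LPS, neither was at least 1.5-fold lower in 5-LOΔ cells, as were 4 of 111 (3.6%). These were let-7e-5p, miR-15b-5p, miR-99b-5p and miR-125a-5p, named after their values were seen. With LPS, 1 of the 2 was at least 1.5-fold lower, against 5 of 111 (4.5%), and miR-454-3p was the fourth lowest. The other 4, named after their values were seen, were let-7d-3p, let-7e-5p, miR-99b-5p and miR-125a-5p. The knockout ratio with LPS was at least 1.5-fold below that without LPS for 8 of 111 (7.21%), among them miR-454-3p at rank 3 of 111 and not miR-301a-3p. With a mean of the genotypes of at least 10 and neither above 30, all 5-LOΔ libraries were below all wild-type libraries under every possible split for 1 of 23 miRNAs with LPS (4.35%), which was miR-454-3p. Without LPS this held for 1 of 22 (4.55%), miR-484, and not for miR-454-3p. The comparison of libraries and the naming of miR-484 were chosen after the data were seen.

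**Figure D3:**
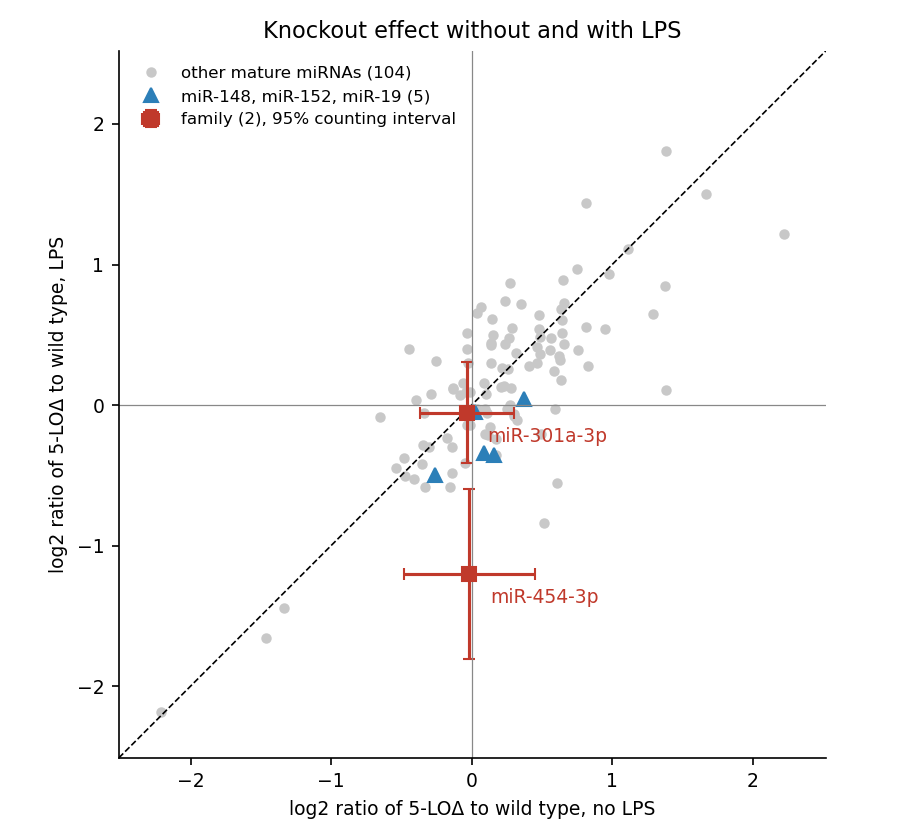
Log2 ratio of 5-LOΔ to wild type without LPS (horizontal axis) and with LPS (vertical axis) for the 111 mature miRNAs with a mean of at least 10 normalized counts. Squares are the 2 family members with 95% counting intervals, triangles are 5 relatives in sequence, and equal ratios lie on the dashed line. miR-301a-3p lies near 0 on both axes (-0.03 and -0.05), and miR-454-3p lies well below the dashed line (-0.02 and -1.20).

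The median log2 ratio of the 111 miRNAs was 0.17 without LPS and 0.13 with LPS. With this median set to 0, miR-301a-3p stood at -0.21 and -0.19 and miR-454-3p at -0.19 and -1.33 without and with LPS. The shift leaves unchanged how the members differ from each other, as a ratio within a group needs no scaling. The ratio of miR-454-3p to miR-301a-3p was 0.509 in wild-type (0.387 to 0.669) and 0.515 in 5-LOΔ cells (0.386 to 0.687). With LPS it was 0.577 in wild-type (0.434 to 0.766) and 0.260 in 5-LOΔ cells (0.175 to 0.387). The SKA2 pair thus kept one proportion in 3 groups within the counting error and had a lower one in 5-LOΔ cells with LPS. The log2 change of the ratio between genotypes was 0.02 without LPS (-0.56 to 0.59) and -1.15 with LPS (-1.85 to -0.44). This ratio was chosen after the data were seen, and since the splits of miR-301a-3p are many, it cannot be given for single libraries.

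The tables with and without LPS were normalized separately, so a level with LPS was set beside one without LPS as a share of the mature miRNA sum of its group. In wild-type cells miR-454-3p held 0.0244% without and 0.0269% with LPS, a log2 ratio of 0.14 (95% counting interval -0.32 to 0.60). In 5-LOΔ cells it held 0.0218% without and 0.00989% with LPS, a log2 ratio of -1.14 (-1.75 to -0.53). The shares of miR-301a-3p were 0.0480% and 0.0467% in wild-type and 0.0424% and 0.0380% in 5-LOΔ cells, log2 ratios of -0.04 (-0.38 to 0.30) and -0.16 (-0.51 to 0.20). Neither member was at least 1.5-fold lower with LPS in wild-type cells, against 4 of 111 miRNAs (3.6%), which were miR-101-3p, miR-23a-3p, miR-152 and miR-148a-5p (all but miR-152 named after their values were seen). In 5-LOΔ cells 1 of the 2 was at least 1.5-fold lower with LPS. There the background was 23 of 111 miRNAs (20.7%), and miR-454-3p was second lowest. The median share ratio of the 111 was -0.13 in wild-type and -0.24 in 5-LOΔ cells on the log2 scale.

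miR-301b and miR-130b-3p, the guides from chromosome 22, were near the detection limit. The miR-301b libraries held 3, 5 and 3 reads in wild-type and 4, 2 and 2 reads in 5-LOΔ cells, with means of 3.57 and 2.62 normalized counts. With LPS they held 4, 5 and 4 reads in wild-type and 6, 2 and 0 reads in 5-LOΔ cells, with means of 4.33 and 2.34. The genotypes overlapped in both tables. The log2 ratio of 5-LOΔ to wild type was -0.45 without and -0.89 with LPS. With one library left out, it ran from -0.67 to -0.14 without and from -1.86 to -0.31 with LPS. From the pooled reads of a group over its summed size factors the ratio was -0.39 (exact 95% counting interval -1.91 to 1.06) and -0.47 (-1.95 to 0.91).

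The miR-130b-3p libraries held 5, 6 and 0 reads in wild-type and 4, 0 and 0 reads in 5-LOΔ cells, with means of 3.30 and 0.998 normalized counts. With LPS they held 6, 0 and 2 reads in wild-type and 5, 0 and 0 reads in 5-LOΔ cells, with means of 2.17 and 1.28. All reads of the 5-LOΔ cells thus came from 1 library in each table, and without that library the mean is 0. The log2 ratio was -1.73 without and -0.76 with LPS, and from pooled reads -1.39 (exact 95% counting interval -3.50 to 0.36) and -0.45 (-2.41 to 1.35). Summed with those of miR-301b, the reads were 22 in wild-type and 12 in 5-LOΔ cells without LPS and 21 and 13 with LPS. The log2 ratios of the summed means were -0.93 (95% counting interval -2.00 to 0.15) and -0.85 (-1.94 to 0.25), so no difference between the genotypes was detectable on the deposited scale. With the ratios shifted by the 4 other scalings, the interval did not reach 0 under 3 of them without LPS and under 1 with LPS. For mature miRNAs whose mean was 10 or lower, a library held exactly 1 read in 41 cases and exactly 2 reads in 346, so a library at 0 may have had a single read.

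All 4 guides had a lower mean in 5-LOΔ than in wild-type cells, without LPS and with LPS, as deposited. Of all mature miRNAs above 0 in both genotypes, 90 of 206 (43.7%) were lower without LPS and 85 of 190 (44.7%) with LPS. The 4 other scalings all lower every ratio (log2 shifts of -0.33 to -0.07). They raise the shares of lower miRNAs to between 54.9% and 66.5% without and between 46.8% and 61.6% with LPS, and they could not change the count of 4 guides and are no support for it. Of the 8 log2 ratios, only that of miR-454-3p with LPS had a counting interval that did not reach 0 as deposited, and so it was under 3 of the 4 other scalings. With equal mature sums without the miR-3607 arms, the intervals of miR-301a-3p (-0.70 to -0.03 without LPS and -0.74 to -0.02 with LPS) and of miR-130b-3p without LPS (-3.96 to -0.15) did not reach 0 either.

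The sum of the 4 guides without LPS was 81.1 normalized counts for wild-type and 76.4 for 5-LOΔ cells, a log2 ratio of -0.09 (95% counting interval -0.35 to 0.18). With LPS the sum was 75.1 and 56.4, a log2 ratio of -0.41 (-0.71 to -0.12). With one library left out under every possible split, chosen after the data were seen, the ratio ran from -0.91 to 0.85 without LPS and from -0.88 to 0.11 with LPS, where 35 of 36 values were below 0. Without miR-454-3p the ratio with LPS was -0.14 (-0.48 to 0.21), so that the difference in the sum was mostly that of miR-454-3p. As a share of the mature miRNA sum, the guides made up 0.0792% in wild-type and 0.0674% in 5-LOΔ cells without LPS, and 0.0805% and 0.0512% with LPS. Within the sum, miR-301a-3p held 60.6%, 62.9%, 57.9% and 74.2% in wild-type, 5-LOΔ, wild-type with LPS and 5-LOΔ with LPS. miR-454-3p held 30.9%, 32.4%, 33.4% and 19.3% in the same order. The order of the members was the same in the 4 groups for this pair, while miR-301b and miR-130b-3p did not differ from each other beyond the counting error in any group.

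**Figure D4:**
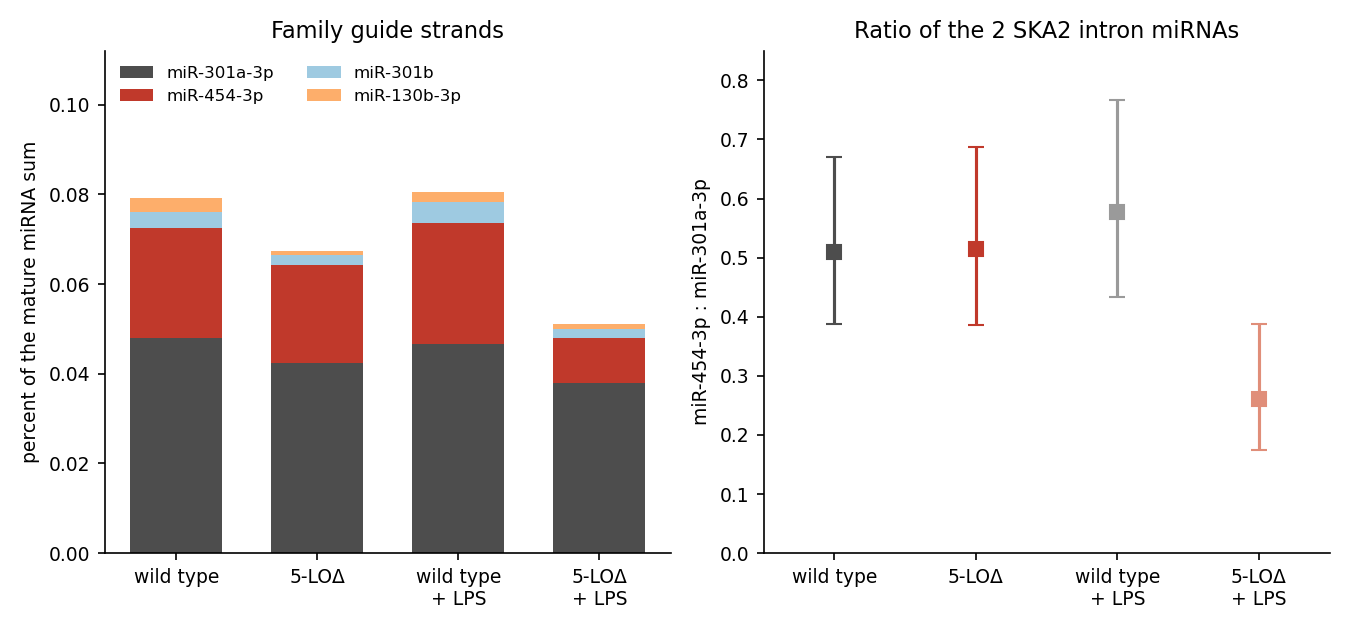
Left, percent of the mature miRNA sum held by each guide strand, stacked by group. Right, ratio of miR-454-3p to miR-301a-3p in each group with 95% counting intervals. The stack is lowest (0.0512%) and the ratio smallest (0.260) in 5-LOΔ cells with LPS.

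The 5p strands, which come from the other arm of the hairpins, were low throughout. miR-301a-5p had means of 0.534, 1.06, 2.47 and 0.769 normalized counts in wild-type, 5-LOΔ, wild-type with LPS and 5-LOΔ with LPS, from 2, 3, 8 and 3 reads. miR-454-5p had 0, 0.705, 1.87 and 1.60 normalized counts from 0, 2, 6 and 4 reads, and in each group where it was seen all reads came from 1 library. For wild-type cells, 0 reads allow a mean of up to 0.953 normalized counts (3 reads over the group) if all reads were counted. A library at 0 may have had a single read, so the mean may have been higher. miR-130b-5p held 4, 4 and 4 reads in the wild-type and 4, 2 and 0 reads in the 5-LOΔ libraries, with means of 3.89 and 1.70. All 5-LOΔ libraries (0 to 2.99 normalized counts) thus lay below all wild-type libraries (3.20 to 4.53) without LPS, as for 5 of 131 miRNAs with a wild-type mean above 0 and a mean of the genotypes below 10 (3.82%), a count chosen after the data were seen. With LPS that count was 3 of 125 (2.4%), and miR-130b-5p was not among them. With LPS it held 4, 0 and 0 reads and 5, 0 and 0 reads, with means of 0.775 and 1.28. Its log2 ratio of 5-LOΔ to wild type was -1.19 without and 0.72 with LPS, and from pooled reads -0.93 (exact 95% counting interval -2.63 to 0.59) and 0.55 (-1.66 to 2.89).

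The arms were unequal for the SKA2 pair and equal within counting error for miR-130b. The 5p strand made up 1.07% to 5.38% of both arms for miR-301a in the 4 groups. For miR-454 it was 0% in wild-type (80 reads of the 3p strand, exact binomial 95% interval 0% to 4.51%), 2.77% in 5-LOΔ (0.308% to 8.85%), 6.92% in wild-type with LPS and 12.8% in 5-LOΔ with LPS (2.94% to 24.8%). These intervals take libraries at 0 as full counts. Such a library may have had a single read, so the upper limits may be too low. For miR-130b, 27 of the reads of all 4 groups were of the 5p and 28 of the 3p strand, a 5p share of 49.1% (35.4% to 62.9%). Of these 3 hairpins, miR-130b was thus the only one for which neither arm stood out as the main strand, and for miR-301b no second arm is listed.

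The precursor entries mir-130b and mir-301b equalled the sum of their listed arms in all 4 groups. The entries mir-301a and mir-454 did so in 3 groups each, and in 5-LOΔ cells without LPS they held 2 and 3 reads beyond their arms. mir-454 had means of 25.0 and 26.2 normalized counts without LPS and 26.9 and 12.5 with LPS. The precursor entries therefore count the reads of the mature arms again and give no separate level of the hairpins.

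Other miRNAs carry part of the seed, and the 5 guides examined are shown to place it.

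miR-148a-3p: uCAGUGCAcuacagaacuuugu
miR-148b-3p: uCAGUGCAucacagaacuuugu
miR-152: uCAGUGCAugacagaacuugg
miR-19a-3p: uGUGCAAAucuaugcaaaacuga
miR-19b-3p: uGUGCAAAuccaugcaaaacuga

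Capitals again mark bases 2 to 8 (RefSeq, GRCh38.p14). The miR-148 and miR-152 guides hold AGUGCA one base further in, and the miR-19 guides hold GUGCAA one base nearer the 5′ end. None of these 5 was at least 1.5-fold lower in 5-LOΔ cells in either table. Against shares of 4 of 111 miRNAs (3.6%) without and 5 of 111 (4.5%) with LPS, a count of none in 5 tells little. Without LPS their log2 ratios ran from -0.26 (miR-148b-3p) to 0.37 (miR-19b-3p), with a median of 0.09. With LPS they ran from -0.50 (miR-148b-3p) to 0.04 (miR-19b-3p), with a median of -0.34. The ratio with LPS minus that without was -0.43 for miR-152 (95% counting interval -1.09 to 0.23) and -0.52 for miR-19a-3p (-0.86 to -0.17). It was -0.33 for miR-19b-3p (-0.48 to -0.17), -0.24 for miR-148b-3p (-0.56 to 0.09) and -0.08 for miR-148a-3p (-0.26 to 0.11). All 5 were below 0 and smaller in size than the -1.18 of miR-454-3p. The intervals of all but miR-148a-3p overlap that of miR-454-3p (-1.95 to -0.42). On the share scale, the log2 ratio of LPS to no LPS in 5-LOΔ cells was -1.13 for miR-152 (95% counting interval -1.62 to -0.64), close to the -1.14 of miR-454-3p, and -0.69 for miR-19b-3p, -0.67 for miR-19a-3p, -0.43 for miR-148b-3p and -0.22 for miR-148a-3p. The first 3 of these were at least 1.5-fold lower, as were 23 of all 111 miRNAs (20.7%). In wild-type cells it was -0.60 for miR-152 (-1.04 to -0.16) and from -0.26 to -0.05 for the other 4.

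The mature miRNAs most like the family in their share profile over the 4 groups were sought among 98 others with a mean of at least 10 in each group, by the distance between centred log2 shares. For the summed guides these were miR-199a-3p (distance 0.10), miR-143-3p (0.14) and miR-148b-3p (0.16). The nearest to miR-301a-3p was miR-148a-3p, at a distance of 0.05, with shares of 0.348%, 0.319%, 0.336% and 0.274% in wild-type, 5-LOΔ, wild-type with LPS and 5-LOΔ with LPS. The nearest to miR-454-3p was miR-103a-3p, at a distance of 0.45, so that no other miRNA came as near to its profile as miR-148a-3p did to that of miR-301a-3p. These distances rest on 4 means and describe these libraries only.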

How the data were processed

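The authors trimmed adapters, annotated reads against hg19 (the build in the submitters' processing notes) with omiRas and deposited, per genotype and table, a signal column with the mean of normalized counts. The omiRas version, the aligner and how values were scaled: not given in the sources used here. Deposited columns with the log2 fold change, p-value and FDR of the authors' own comparison were not used. Columns were mapped to groups by name, 0 other per-sample columns were left out, and no test was fitted because single libraries are not given. Size factors were searched so that every mean of at most 10 is a sum of whole reads within 6 significant digits. On simulated data this gave back the size factors and, for means of at most 10, the reads they were made with. The simulated libraries kept their single reads, of which the deposited values hold few, so the simulation differs from the data in this. Counting intervals follow from the size factors, and exact ones from the binomial distribution. Ratios had no pseudocount. Named were the family, its relatives, the nearest profiles and cell type markers, by a rule that, like the members, was chosen with earlier results of these data known. Gene positions came from GENCODE on GRCh37. Scripts ran under Python 3.11.15 with scipy 1.17.1, pandas 2.3.3, matplotlib 3.10.9 and numpy 2.4.6.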

Additional observations from a re-analysis of the deposited data

How the results depend on the processing

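The 96 recomputed log2 ratios of the guides (4 scalings, pseudocounts of 0.1, 1 and 10, and single libraries of all but miR-301a-3p left out) stayed within the counting interval of the deposited scale. The intervals of miR-130b-3p and miR-301b are so wide that this tells little of them. Without LPS, miR-130b-3p went from -1.73 to -0.27 with a pseudocount of 10 and was still within its interval (-3.63 to 0.18). With LPS, miR-454-3p ran from -1.53 to -0.75 over scalings and pseudocounts. With one library left out, miR-301b ran from -0.67 to -0.14 without and from -1.86 to -0.31 with LPS, and miR-130b-3p from -2.31 to -1.0 and from -1.34 to -0.17, apart from the 5-LOΔ library that held all its reads. For miR-301a-3p, whose splits into libraries differ widely, 28 of 51 ratios lay within the counting interval with one library left out under every possible split, chosen after seeing the data. It ran from -1.72 to 2.67 without and from -0.93 to 0.52 with LPS, and the summed guides from -0.91 to 0.85 and from -0.88 to 0.11, so the direction of the sum is not stable to this. The sum also moved beyond the counting interval with equal mature sums without the miR-3607 arms, to -0.41 without and -0.74 with LPS. The shifted intervals (-0.68 to -0.15 and -1.03 to -0.45) did not reach 0. Under the other scalings the upper limit without LPS was 0.00205 to 0.0302, so whether the interval reaches 0 there depends on the scaling. Without miR-301b the ratio of the sum was -0.07 and -0.39, and without miR-454-3p -0.12 and -0.14, alternatives chosen after seeing the data. Without the miR-3607 arms in the denominator the guides' shares were 0.140%, 0.105%, 0.139% and 0.0831% in wild-type, 5-LOΔ, wild-type with LPS and 5-LOΔ with LPS, and over all noncoding RNAs 0.000754%, 0.000629%, 0.000775% and 0.000555%. In place of 4 miRNAs at least 1.5-fold lower in 5-LOΔ cells without LPS and 5 with LPS, a minimum mean of 50 gave 2 and 1, and no minimum 38 and 33. In place of 4 lower with LPS in wild-type and 23 in 5-LOΔ cells, 2-fold gave 0 and 4, a minimum mean of 50 gave 1 and 11, and no minimum 39 and 51. The causes were not tested. No paired analysis was possible because the deposited columns are means and the recovered libraries carry no replicate number. Depth limits miR-130b and miR-301b, with at most 13 reads a group and strand.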
